A study of Mus musculus with 48 samples.

Results

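Wild-type mouse striatum was compared with wild-type mouse cerebellum by RNA sequencing. The comparison used the 16 of 48 libraries in the series that came from wild-type striatum or wild-type cerebellum, 8 of each, and paired the 2 libraries of each animal by the animal number in the count table. The series was built around a mouse deletion of the 7qF3 interval, which is syntenic to the human 16p11.2 interval, with cortex, striatum and cerebellum taken from each animal. The wild-type mice, on a mixed C57BL/6N:129Sv background, were 4 males (animals W805 to W808) and 4 females (animals W813 to W816) and carried no deletion. The 8 animals heterozygous for the deletion, again 4 males and 4 females, were used only to see how the regional difference behaved in a second set of mice. A date field in the labels split the animals in the same way as sex, so sex and that date cannot be told apart, and no age can be given. Libraries were made with a stranded poly(A) kit and sequenced on an Illumina HiSeq 2500. Each of the 16 libraries held between 29331296 and 34417630 counts on genes, after the spike-in rows were set aside.

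The striatum is the input structure of the basal ganglia. Most of its neurons are GABA-releasing projection neurons with spiny dendrites, which receive glutamate from cortex and thalamus and dopamine from the midbrain. One class carries the D1 dopamine receptor and the peptides substance P and dynorphin (the direct pathway). The other carries the D2 dopamine receptor, an adenosine receptor and the peptide enkephalin (the indirect pathway). The cerebellar cortex is instead dominated by very numerous small glutamatergic granule cells, whose parallel fibres contact the GABA-releasing Purkinje cells, with a few inhibitory interneuron types and the Bergmann glia around them. The striatum arises from the embryonic forebrain and the cerebellum from the hindbrain, and the adult cells of each still express transcription factors of their origin.

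The labels were checked first. Granule cell markers had a mean log2 CPM (read counts scaled to library size by the TMM method) of 7.27 to 8.81 in the 8 cerebellum libraries and 3.38 to 4.50 in the 8 striatum libraries. Purkinje cell markers lay between 6.51 and 7.29 in cerebellum and between 3.35 and 3.94 in striatum, so neither list overlapped between regions. Projection neuron markers were higher in the striatum library of all 8 animals, from 5.64 to 8.49 against 3.94 to 5.11 in cerebellum. Their spread in striatum was wide, and animals W805, W807 and W813 were the lowest at 5.91, 5.83 and 5.64.

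Transcripts of neighbouring tissue were also unequal between libraries. Hypothalamic markers, a list added after the data had been seen, summed to 329 CPM in animal W805, 2898 CPM in animal W807 and 654 CPM in animal W813, against 12.6 to 129 CPM in the other 5 and at most 3.84 CPM in cerebellum. Choroid plexus markers summed to 2529 CPM in the striatum library of animal W813 and 8254 CPM in that of animal W816, against 358 to 473 CPM in the rest. In cerebellum the same list summed to 17174, 5386, 5168 and 2490 CPM in animals W813, W807, W808 and W805 and to 183 to 894 CPM in the other 4. Hoxb5, a factor of the caudal brainstem, was at 20.5 and 2.58 CPM in the cerebellum of animals W807 and W813 and at most 0.607 CPM in the other 6. Cortical excitatory markers summed to 2171, 1666 and 1989 CPM in the striatum libraries of animals W813, W814 and W815, against 362 to 751 CPM in the rest. The part of such neighbouring tissue in any gene's regional difference was not tested, and values without animals W805, W807 and W813 are given beside the results that rest on them.

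**Figure D1:**
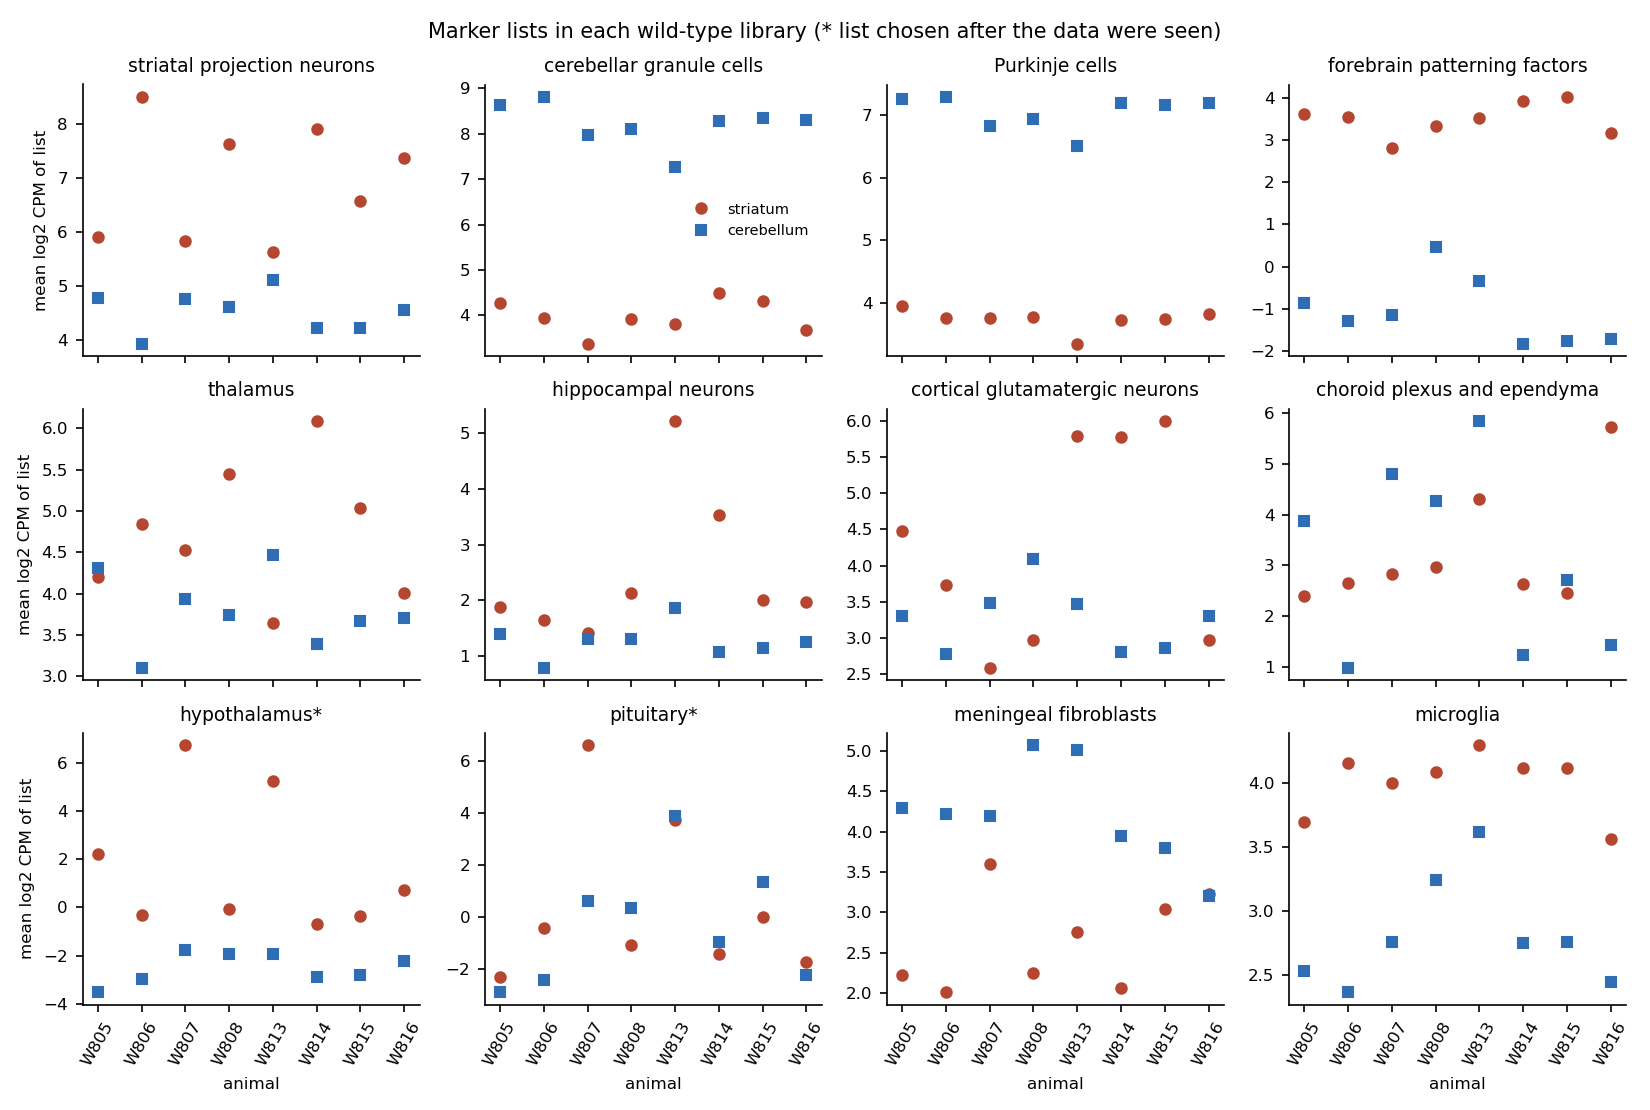
Mean log2 CPM of 12 marker lists in each wild-type library, with the animal on the horizontal axis, striatum as red circles and cerebellum as blue squares. The granule and Purkinje cell lists separate the regions in all 8 animals, the projection neuron list is lowest in the striatum of animals W805, W807 and W813, and the hypothalamic list is highest there.

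Close to 1 tested gene in 2 differed between the regions. Of 17012 genes tested with animal as a block, 7990 (47%) had an adjusted p under 0.05, with 4145 higher in striatum (24.4%) and 3845 higher in cerebellum (22.6%). A difference of at least 2-fold was held by 2378 genes in the striatal direction (14%) and 1347 in the cerebellar direction (7.92%). At 8-fold or more the counts were 516 and 230, and at 32-fold or more 105 and 69. The median log2 difference over all tested genes was -0.01. Counts of list members over all 8 animals are to be read against the 24.4% and 22.6% of all genes. Member counts in smaller sets of animals are to be read against the shares there, which for striatum and cerebellum were 24.5% and 24.5% in the 4 males and 22.5% and 21.7% in the 4 females. They were 22.9% and 24% without animals W805, W807 and W813, 20.8% and 18.2% without animals W807, W808 and W813, and 21.1% and 18.4% without animals W813 and W816. For 3023 genes (17.8%) the 8 striatum libraries and the 8 cerebellum libraries did not overlap. Both regions came from the same 8 animals, with animal as a block. These p-values therefore set the mean difference within an animal against its variation from animal to animal. The fit estimates that variation in part from the other genes. In bulk tissue, fewer cells of a type and less RNA per cell cannot be told apart.

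Deletion animals showed nearly the same regional differences. Of the 7990 genes called in wild-type mice, 7870 were tested in the 8 deletion animals, and 7861 of these (99.9%) differed in the same direction there. The call itself was repeated for 6623 (82.9% of the wild-type calls). In the deletion animals alone, 3858 genes (22.7%) were higher in striatum and 3635 (21.4%) in cerebellum.

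**Figure D2:**
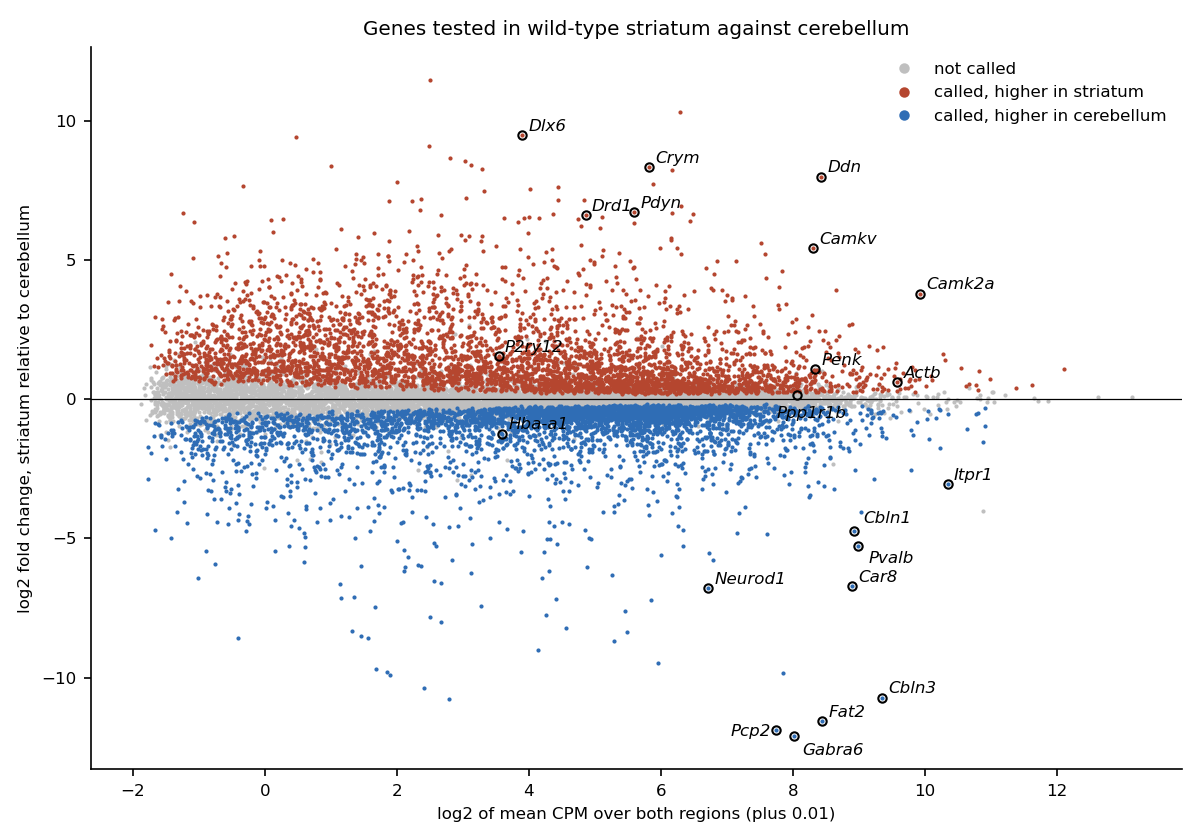
Log2 difference of striatum minus cerebellum for every tested gene (vertical axis) against its log2 mean CPM over the 16 libraries (horizontal axis), with genes past an adjusted p of 0.05 coloured by direction and a selection labelled. Dlx6 and Crym lie far up, Gabra6, Pcp2 and Fat2 lie far down, and Actb at 0.63.

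Transcription factors that mark the 2 embryonic origins gave some of the largest differences. Among 15 tested forebrain factors, 12 were higher in striatum and none in cerebellum, with a median log2 difference of 5.39, and all 17 tested hindbrain and cerebellar factors were higher in cerebellum, with a median of -3.27. Dlx1, a homeobox factor of GABAergic forebrain neurons, had 23.8, 60.1 and 97.6 CPM as its lowest, median and highest striatal values and 0.165, 0.33 and 0.951 CPM in cerebellum. The groups did not overlap, and the log2 difference was 7.18 ± 0.35 (SE from the fitted model, n = 8 animals, adjusted p = 6.48e-07). Its relative Dlx6 reached 9.51 ± 0.52 (adjusted p = 1.34e-06), with 11 counts in all 8 cerebellum libraries together. Both overlap antisense transcripts (Dlx1as, Dlx6os1), whose reads cannot be separated from theirs here, since the strand setting of the counting is not given in the sources used here. Six3, a forebrain homeobox factor, was also higher in striatum (6.52 ± 1.28, adjusted p = 0.00209), although 1 cerebellum library held 7 CPM. Tbr1 and Emx2, which mark cortical neurons and dorsal progenitors, were called as well (4.77 ± 0.62 and 5.71 ± 0.66). Nr2f1 (-0.43) and Nr2f2 (0.62) were not called, although Nr2f2 passed without animal W808 (0.81) and Nr2f1 without animal W814 (-0.64).

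En2, the engrailed factor of the midbrain and hindbrain boundary, was at 0.496, 0.817 and 1.02 CPM (lowest, median, highest) in striatum and 58.4, 117 and 155 CPM in cerebellum. The log2 difference was -7.20 ± 0.17 (adjusted p = 3.29e-09). Tfap2b, an AP-2 factor of cerebellar inhibitory neurons, gave -7.18 ± 0.25, with 42.4 CPM as its cerebellar median against 0.228 CPM. Barhl1 and Pax6, which act in the granule cell lineage, gave -5.79 ± 0.22 and -3.20 ± 0.11. Zic1, a zinc finger factor of granule cells, was less regional, with 13.4 to 175 CPM in striatum and 251 to 664 CPM in cerebellum (-2.28 ± 0.34, adjusted p = 0.000363). Zic1 shares sequence on the opposite strand with its neighbour Zic4, which gave -0.99 ± 0.32 (adjusted p = 0.026) and lost its call without animal W806 or W807 (adjusted p = 0.0517 and 0.0534).

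Striatal projection neuron genes were mostly higher in striatum, by amounts that varied from animal to animal. Of 20 tested members, 16 were higher in striatum and 1 in cerebellum (median log2 difference 2.06), against 24.4% and 22.6% of all genes. Without animals W805, W807 and W813, 17 were higher in striatum and the median was 2.76. These animals were set apart because this list was lowest in them, so a higher median without them follows from that choice. Rgs9, a regulator of G protein signalling that shortens dopamine receptor responses, had 32, 371, 89.2, 259, 46.8, 216, 48.6 and 172 CPM in the striatum of animals W805, W806, W807, W808, W813, W814, W815 and W816. Its cerebellar values ran from 0.748 through 2.97 to 7.98 CPM. Animals W805, W813, W815 and W807 were the lowest, yet all 8 striatum libraries lay above all 8 cerebellum libraries (5.21 ± 0.66, adjusted p = 0.000146). Bcl11b (Ctip2), a factor needed for projection neuron differentiation, gave 5.35 ± 0.61 (adjusted p = 7.82e-05).

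Several signalling proteins of this cell type were abundant in both regions. Adcy5, the main striatal adenylyl cyclase, had 137, 391 and 1012 CPM in striatum and 60.5, 69.3 and 90 CPM in cerebellum as lowest, median and highest values (2.41 ± 0.35, adjusted p = 0.000318). Gng7, the G protein gamma subunit that works with it, gave 3.39 ± 0.42, and Ptpn5 (STEP), a striatal-enriched tyrosine phosphatase, gave 3.25 ± 0.40. The phosphodiesterases Pde1b and Pde10a, which break down cyclic nucleotides, gave 2.76 ± 0.49 (adjusted p = 0.0011) and 1.47 ± 0.51 (adjusted p = 0.037), the latter in 6 of 8 animals. The regions did overlap for Pde10a, at 27.2 to 490 CPM in striatum and 21.3 to 140 CPM in cerebellum, and its call was lost without any 1 of animals W806, W808, W814, W815 and W816 (adjusted p = 0.0737 to 0.0932).

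Ppp1r1b (DARPP-32), the phosphatase inhibitor that is the best known marker of these neurons, was not called. Its striatal values were 32.1, 1028, 93.7, 715, 59.6, 555, 97.4 and 297 CPM in animals W805, W806, W807, W808, W813, W814, W815 and W816, and its cerebellar values ran from 119 to 244 CPM. Animals W805, W807, W813 and W815 were below every cerebellum library and the other 4 above, giving a log2 difference of 0.16 ± 0.60 (adjusted p = 0.848). Without animals W805, W807 and W813 it was 1.2, a rise that again follows in part from choosing them by this list. Ppp1r16b, a phosphatase regulator on the same list, was the one member higher in cerebellum (-0.79 ± 0.16, adjusted p = 0.00271).

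Dopamine receptor genes and the direct pathway peptides were higher in striatum, and the indirect pathway peptide was not called. In the direct pathway list 7 of 8 tested members were called, with a median of 4.46, and in the indirect pathway list 4 of 5, with a median of 4.93, none of either list in the cerebellar direction. Drd1, the D1 receptor, was at 8.07, 168, 14.5, 73.3, 5.18, 95.8, 28.6 and 67.4 CPM in the striatum of animals W805, W806, W807, W808, W813, W814, W815 and W816 and between 0.0959 and 0.747 CPM in cerebellum. The regions did not overlap (6.63 ± 0.87, adjusted p = 0.000182). Pdyn, the dynorphin precursor, reached 27.1 to 179 CPM against 0 to 3.66 CPM (6.74 ± 0.75, adjusted p = 6.7e-05). Tac1, the substance P precursor, had medians of 84.4 and 2.39 CPM (4.77 ± 0.71, adjusted p = 0.00039). Chrm4, the inhibitory muscarinic receptor of direct pathway neurons, gave 4.16 ± 0.44 (adjusted p = 4.86e-05).

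In the indirect pathway, Drd2 ranged from 3.47 to 92.5 CPM in striatum and from 0.198 to 3.5 CPM in cerebellum, and was higher in 7 of 8 animals (4.93 ± 0.97, adjusted p = 0.00214). Adora2a, that adenosine receptor, was at 2.71, 206, 13.9, 119, 2.51, 98, 13.6 and 57.5 CPM in the striatum of the 8 animals in the order above. The 2 lowest values, from animals W805 and W813, fell within the cerebellar range of 2.12 to 3.33 CPM (3.49 ± 0.90, adjusted p = 0.00929). Penk, the enkephalin precursor, was at 147, 1331, 283, 935, 96.1, 548, 146 and 422 CPM in striatum against 98.4 to 197 CPM in cerebellum. The regions overlapped and the call was not made (1.09 ± 0.44, adjusted p = 0.0673, higher in 6 of 8 animals). It was made without animals W805, W807 and W813 (1.65), which were set apart for low projection neuron markers. It was also made in the 4 males alone (1.79), in the deletion animals (1.43) and without animal W813 or W815 alone (1.30 and 1.32). It was not made in the 4 females alone (0.41, adjusted p = 0.433), without animals W807, W808 and W813 (1.17, adjusted p = 0.0942), without animals W807, W813 and W816 (1.53, adjusted p = 0.0752) or without any 1 of the other 6 animals (0.79 to 1.18). Among the other dopamine genes, the D5 receptor Drd5 gave 2.42 ± 0.28 and the vesicular monoamine transporter Slc18a2, which loads dopamine into vesicles, gave 5.89 ± 0.66. Of 9 tested dopamine genes, 6 were higher in striatum and 1, Maoa, in cerebellum (-0.23 ± 0.07), a call lost without animal W808 (adjusted p = 0.0694).

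Markers of striatal interneurons followed, with 8 of 12 higher in striatum and 1 in cerebellum and a median of 4.03, which was the same with Nkx2-1 set at its bound (below). Chat, which makes acetylcholine, ran from 0.234 through 10.4 to 32.5 CPM in striatum and from 0 through 0.393 to 3.69 CPM in cerebellum (4.47 ± 1.40, adjusted p = 0.0242, 7 of 8 animals). Its lowest striatal value was that of animal W813, and Chat shares its locus with Slc18a3, the vesicular acetylcholine transporter (4.23 ± 1.37). Both calls were lost without any 1 of animals W805, W806, W814, W815 and W816 (adjusted p = 0.0506 to 0.0695), and the striatal count of the list was then as low as 5. In the 4 females alone it was 3, and in the 4 males alone 8. Lhx6, a factor of GABAergic interneurons from the medial ganglionic eminence, gave 6.51 ± 0.49 (adjusted p = 7.44e-06) and somatostatin (Sst) 4.0 ± 0.62 (adjusted p = 0.000474). Both Lhx8 and Nkx2-1, further factors of that lineage, had no cerebellar count at all. Lhx8 had 3316 counts and Nkx2-1 2899 counts over the 8 striatum libraries, at least 1077-fold and 941-fold higher than a floor of 3 counts over the 8 cerebellum libraries. Nkx2-1 is also a hypothalamic factor. Npy, a neuropeptide of striatal interneurons, was less regional, with striatal values of 13.5 to 117 CPM overlapping cerebellar values of 10.4 to 26.7 CPM (1.08 ± 0.27, adjusted p = 0.00787). Parvalbumin (Pvalb), carried by striatal fast-spiking interneurons and also by Purkinje cells and molecular layer interneurons, was the member higher in cerebellum, at 454 to 1347 CPM against 12.4 to 55 CPM (-5.28 ± 0.26, adjusted p = 6.65e-07).

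Granule cell genes were among the steepest cerebellar differences. Of 18 tested members, 16 were higher in cerebellum and none in striatum, with a median log2 difference of -2.96. Gabra6, the GABA-A receptor alpha6 subunit found almost only in granule cells, was at 208, 484 and 797 CPM (lowest, median, highest) in cerebellum and 0, 0.11 and 0.301 CPM in striatum. The log2 difference was -12.11 ± 0.27 (adjusted p = 2.78e-09). Fat2, a giant cadherin of granule cell parallel fibres, had 308 to 1152 CPM in cerebellum and 0.124 to 0.482 CPM in striatum (-11.57 ± 0.22, adjusted p = 1.28e-09). Cbln3, a cerebellin that is secreted together with Cbln1, gave -10.72 ± 0.23, with medians of 1330 and 0.674 CPM.

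Cbln1, the cerebellin that bridges parallel fibres to Purkinje cells, was less restricted than Cbln3. Its striatal values were 13.8 to 111 CPM and its cerebellar values 580 to 1218 CPM (-4.74 ± 0.49, adjusted p = 4.04e-05). Neurod1, a proneural factor of granule cells, gave -6.80 ± 0.71, Chn2, a Rac-regulating chimaerin, -3.23 ± 0.11, and Reln, which encodes the secreted protein reelin, -1.75 ± 0.19. The members not called were Nos1 (-0.33, adjusted p = 0.142) and Slc17a7, the vesicular glutamate transporter VGLUT1 (-2.31 ± 1.03, adjusted p = 0.0934). The latter was at 138, 60.1, 6.26, 38, 892, 576, 676 and 10.3 CPM in the striatum of the 8 animals, highest in animals W813, W814 and W815, whose striatum libraries also held the most transcript of cortical excitatory markers. Without animal W813 it passed the test (-2.92, adjusted p = 0.0345).

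Purkinje cell genes were higher in cerebellum for 20 of 22 tested members and higher in striatum for 1, with a median of -2.80. Pcp2, a G protein modulator made in Purkinje cells and retinal bipolar cells, had 215, 370 and 641 CPM in cerebellum and 0.031, 0.0931 and 0.215 CPM in striatum as lowest, median and highest values (-11.87 ± 0.28, adjusted p = 3.97e-09). It overlaps Pet100 on the other strand. Car8, a carbonic anhydrase-related protein that binds the inositol trisphosphate receptor, gave -6.71 ± 0.17 (medians 941 and 8.46 CPM). That receptor, Itpr1, was much less regional (-3.06 ± 0.42, adjusted p = 0.000241), at 65.1 to 607 CPM in striatum and 979 to 4269 CPM in cerebellum. Calbindin (Calb1), a calcium buffer of both Purkinje cells and striatal projection neurons, gave -2.55 ± 0.22, with 68 to 196 CPM against 532 to 1017 CPM. The glutamate transporter Slc1a6, which clears glutamate at Purkinje cell spines, gave -3.87 ± 0.35, and Ppp1r17, a phosphatase inhibitor, -5.79 ± 0.63. Foxp2, a forkhead factor of Purkinje cells and of striatal neurons, went the other way, at 5.88 to 67.2 CPM in striatum and 6.78 to 18.3 CPM in cerebellum (1.44 ± 0.52, adjusted p = 0.042, 6 of 8 animals). That call was lost without any 1 of animals W806, W807, W808, W814, W815 and W816 (adjusted p = 0.0626 to 0.105).

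Cerebellar interneurons and Bergmann glia gave mixed lists. Of 11 tested markers of interneurons and unipolar brush cells, 7 were higher in cerebellum and 2 in striatum (median -2.09), and without animals W807, W808 and W813 the counts were 4 and 2. Kit, a receptor tyrosine kinase of molecular layer interneurons, had 122 to 290 CPM in cerebellum and 18.4 to 43.7 CPM in striatum (-2.68 ± 0.12, adjusted p = 4.17e-07). Slc6a5, the glycine transporter of Golgi cells, gave -8.22 ± 0.49, with a cerebellar median of 45 CPM against 0.0798 CPM. It is also on a brainstem list added after the data had been seen. Its cerebellar values were 86.8, 73.7, 60.2 and 50.2 CPM in animals W807, W816, W805 and W813 and at most 39.8 CPM in the rest. The part of brainstem tissue in them was not tested. Sorcs3 and Nxph1 were the members higher in striatum (1.0 ± 0.12 and 1.31 ± 0.22). Of 11 Bergmann glia markers, 7 were higher in cerebellum and 1, the neuropeptide Y receptor Npy1r, in striatum (2.79 ± 0.44), with a median of -0.83. Gdf10, a secreted factor of Bergmann glia, had 96.6 to 239 CPM in cerebellum and 4.49 to 8.04 CPM in striatum (-4.56 ± 0.22, adjusted p = 5.91e-07). Slc1a3 (GLAST), a glutamate transporter that Bergmann glia share with other astrocytes, gave only -0.83 ± 0.10.

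**Figure D3:**
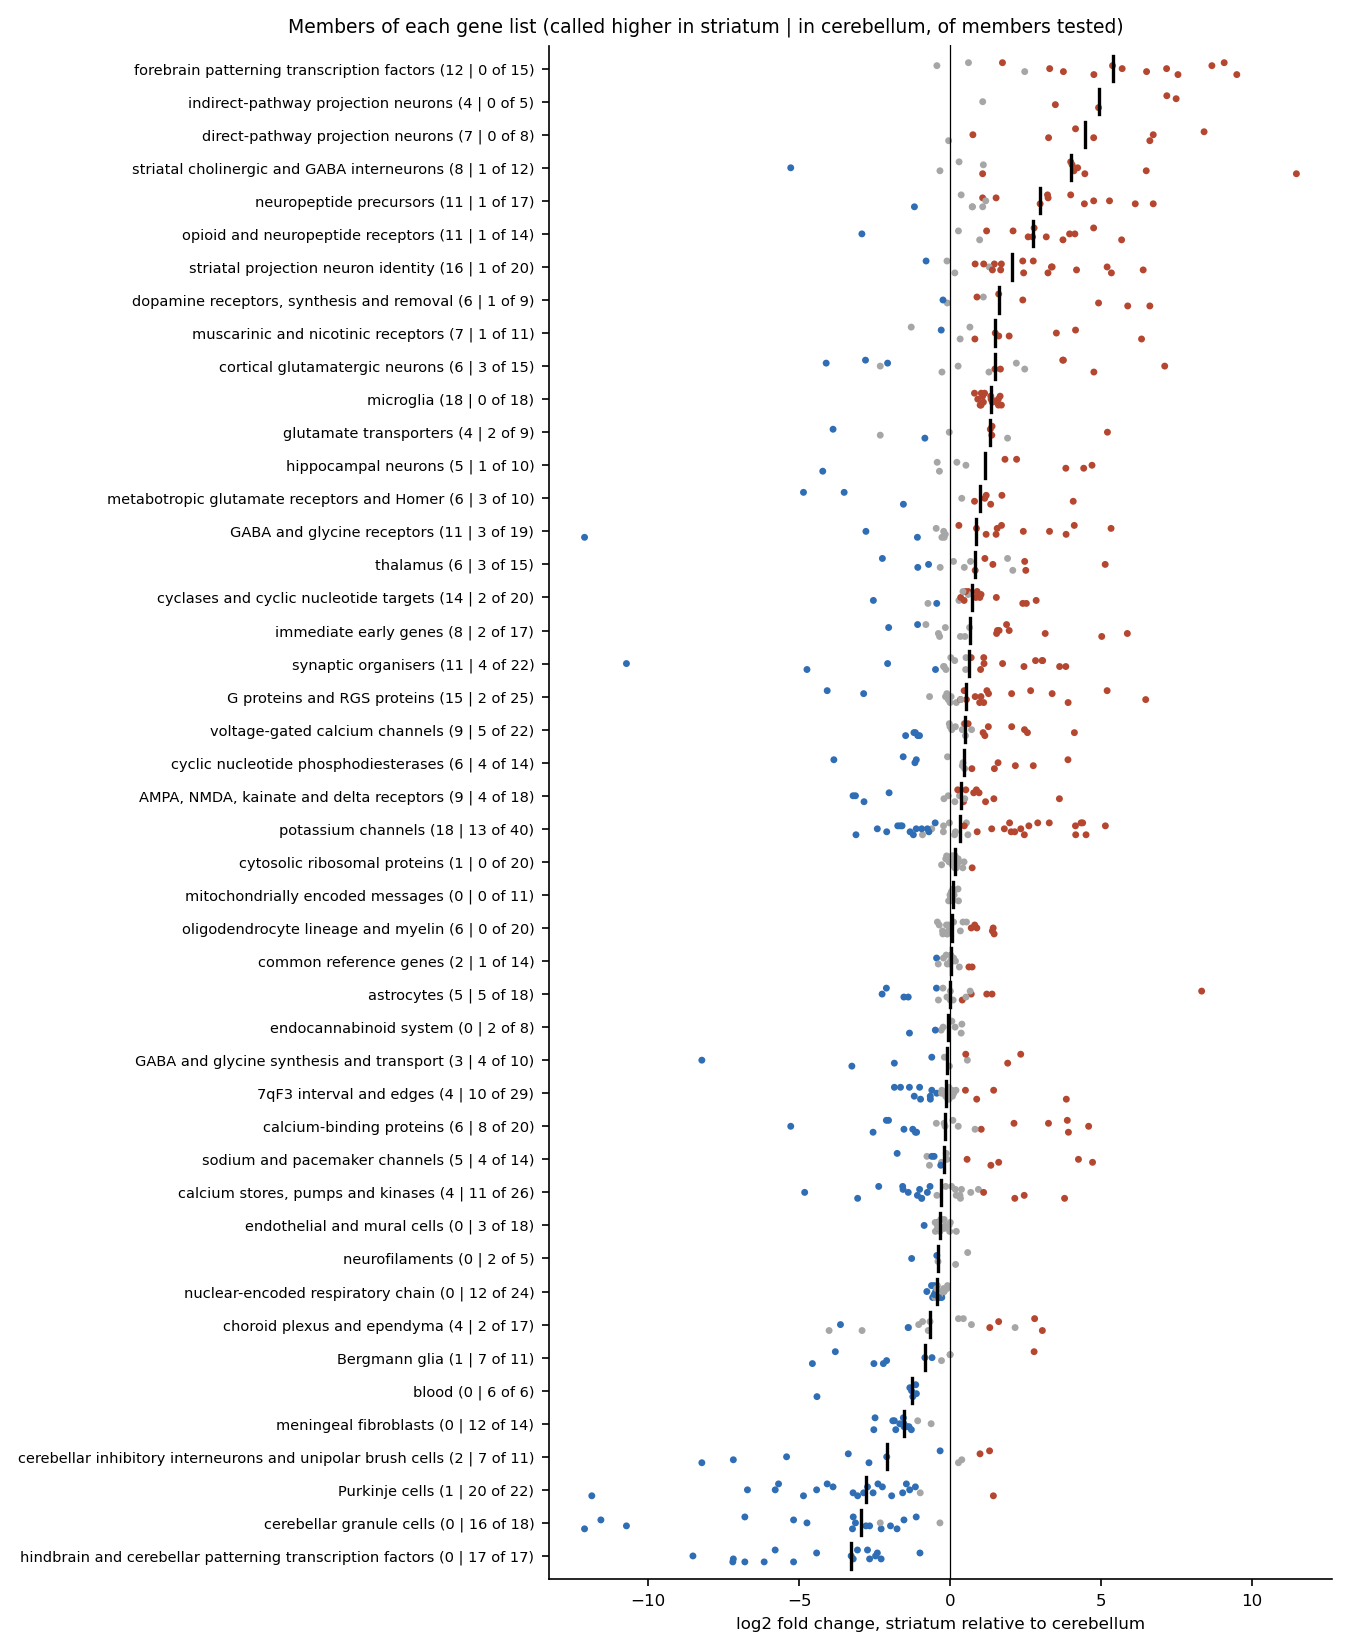
Log2 difference of striatum minus cerebellum for the tested members of each gene list, with 1 point per gene, a bar at the list's median and the counts called in each direction. The forebrain factors lie to the striatal side (median 5.39), the hindbrain factors, granule and Purkinje lists to the cerebellar side (medians -3.27, -2.96 and -2.80), and the mitochondrially encoded and reference genes near 0.

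Promoter sequence is shown for 3 striatal and 2 cerebellar genes, because these genes mark the main neurons of each region and because their promoters differ in base composition. The 250 bases before the most upstream RefSeq start of each gene (RefSeq, GRCm38.p6) are printed 5′ to 3′ on the gene's strand, with CpG dinucleotides in capitals. Rgs9 (chr11:109298182-109298431, minus strand), Drd1 (chr13:54055659-54055908, minus strand) and Tac1 (chr6:7554811-7555060, plus strand) are the striatal genes, and Pcp2 (chr8:3625548-3625797, minus strand) and Gabra6 (chr11:42321073-42321322, minus strand) the cerebellar ones. The Drd1 and Tac1 stretches reach into the GENCODE gene models, which start further upstream. Rgs9, Drd1 and Tac1 were chosen after their values had been seen.
Rgs9: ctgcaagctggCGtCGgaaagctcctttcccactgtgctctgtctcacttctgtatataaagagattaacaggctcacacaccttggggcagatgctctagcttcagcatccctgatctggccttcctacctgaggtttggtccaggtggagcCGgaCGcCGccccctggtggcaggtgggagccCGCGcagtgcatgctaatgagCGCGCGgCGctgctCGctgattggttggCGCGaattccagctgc
Drd1: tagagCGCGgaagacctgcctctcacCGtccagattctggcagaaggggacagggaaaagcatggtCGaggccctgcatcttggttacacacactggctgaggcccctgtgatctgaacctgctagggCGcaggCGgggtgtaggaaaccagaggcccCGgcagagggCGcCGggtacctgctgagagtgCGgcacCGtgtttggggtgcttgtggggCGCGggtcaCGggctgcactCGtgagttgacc
Tac1: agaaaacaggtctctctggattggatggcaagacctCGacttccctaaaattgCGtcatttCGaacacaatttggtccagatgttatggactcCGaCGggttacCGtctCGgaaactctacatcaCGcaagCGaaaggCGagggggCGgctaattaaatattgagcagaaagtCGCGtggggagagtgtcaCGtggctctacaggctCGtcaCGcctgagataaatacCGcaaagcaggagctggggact
Pcp2: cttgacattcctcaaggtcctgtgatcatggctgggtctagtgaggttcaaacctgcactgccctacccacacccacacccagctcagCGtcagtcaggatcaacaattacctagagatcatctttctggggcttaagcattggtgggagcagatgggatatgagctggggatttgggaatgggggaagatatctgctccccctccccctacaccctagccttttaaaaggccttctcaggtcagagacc
Gabra6: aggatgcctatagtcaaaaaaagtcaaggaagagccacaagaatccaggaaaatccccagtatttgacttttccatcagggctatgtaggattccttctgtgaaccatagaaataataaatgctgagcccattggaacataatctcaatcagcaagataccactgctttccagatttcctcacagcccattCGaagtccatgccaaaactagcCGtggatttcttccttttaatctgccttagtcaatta
The 3 striatal promoters held 14, 15 and 17 CpG dinucleotides in the order printed, and the 2 cerebellar ones 1 and 2. Their GC contents were 59.6%, 64% and 51.2% against 52.8% and 40.8%. Over all tested genes the picture differed from these 5: a CpG observed-to-expected ratio of at least 0.6 was held by 63.2% of 15697 promoter windows (300 bases, from 250 before to 50 after the start, for 12288 genes), by 38.7% of the windows of genes at least 8-fold higher in striatum and by 31.5% of those at least 8-fold higher in cerebellum. Both sets of strongly regional genes thus had fewer CpG-rich windows than all genes.

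Short motifs were counted on both strands of the same windows. AGGTCA, a nuclear receptor binding sequence, was in 12.7% of all windows, 9.74% of the strongly striatal ones and 22% of the strongly cerebellar ones. In the printed stretches it lies in Pcp2, 12 bases before the start. CAGATG, an E-box, was in 12.3%, 18.3% and 23.5% of the windows in the same order, with a match in Rgs9, in Tac1 and in Pcp2. TGACG, the core of the cyclic AMP response element, was in 28.7%, 20.9% and 15.5%, with a pair of matches in Tac1 and one in Pcp2, all on the opposite strand. TGCGTCA, which overlaps TGACG read on the other strand, was in 3.26%, 2.55% and 0.5%. In the windows of genes at least 2-fold higher in striatum or cerebellum, AGGTCA was in 13.2% and 16% and CAGATG in 13.9% and 15.2%. These are letter matches, and the strongly regional windows, 431 and 200, belong to 359 striatal and 152 cerebellar genes. The sets also differ in their share of CpG-rich windows (above), and the part of base composition in the motif shares was not tested. The starts are those of the RefSeq table, some of which lie inside longer gene models.

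Lists for neighbouring forebrain tissue were mixed. Of 15 tested markers of cortical glutamatergic neurons, 6 were higher in striatum and 3 in cerebellum (median 1.49), of 10 hippocampal markers 5 and 1 (median 1.18), and of 15 thalamic markers 6 and 3 (median 0.84). The hippocampal list was highest in the striatum of animal W813, at a mean log2 CPM of 5.22 against 1.42 to 3.54 in the rest. Without animals W805, W807 and W813 its counts were again 5 and 1 (median 1.22). In the males alone the counts were 4 and 5 for the cortical list (median 0.45), 4 and 4 for the hippocampal list (median 0.05) and 4 and 3 for the thalamic list. In the females alone they were 7 and 0 (median 2.19), 6 and 1 (median 1.83) and 0 and 2. Thalamic calls in striatum were 1 without animal W807, 2 without animal W808 and 3 without animal W814.

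Receptor families for glutamate and GABA differed between regions by the subunit rather than as a whole. Levels below are in CPM per kb of exon, so that genes can be set side by side. For the ionotropic glutamate receptors, 9 of 18 tested genes were higher in striatum and 4 in cerebellum (median 0.38). Grin1, the obligatory NMDA receptor subunit, differed little, at 54.1 and 45.2 CPM per kb (log2 difference 0.26 ± 0.09, adjusted p = 0.0315), and its call was lost without any 1 animal other than W806 (adjusted p = 0.0518 to 0.136). Grin2b, the forebrain NMDA subunit, was at 10.1 CPM per kb in striatum and 0.764 in cerebellum (3.63 ± 0.40, adjusted p = 6.44e-05). Grin2c, the granule cell NMDA subunit, was at 12.3 and 107 CPM per kb (-3.13 ± 0.15, adjusted p = 6.48e-07). The AMPA subunit Gria4 was at 13.9 and 56.7 CPM per kb (-2.02 ± 0.13), and the delta receptor Grid1 at 13.5 and 4.88 (1.46 ± 0.11).

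Among metabotropic receptors and the Homer proteins that tether them, 6 of 10 were higher in striatum and 3 in cerebellum. Grm5 was at 12.9 CPM per kb in striatum and 0.771 in cerebellum (4.09 ± 0.64, adjusted p = 0.00051). Grm4, a presynaptic receptor of granule cells, was at 8.97 and 92.4 CPM per kb (-3.51 ± 0.19, adjusted p = 1.13e-06). Homer2 was higher in striatum (1.72), as was Homer1 (1.15, a call lost without any 1 of animals W806, W808, W813, W814, W815 and W816, adjusted p = 0.0578 to 0.0878), and Homer3 in cerebellum (-4.85 ± 0.42). Homer3 overlaps Ddx49 on the other strand.

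The GABA-A and glycine receptor list had 11 of 19 genes higher in striatum and 3 in cerebellum (median 0.88). Gabra6 was at 0.0466 CPM per kb in striatum and 207 in cerebellum, the steepest contrast of the family. Gabrd, the delta subunit that joins alpha6 in extrasynaptic receptors of granule cells, was at 20 and 100 (-2.78 ± 0.40, adjusted p = 0.000298). The striatum instead held more Gabra3 (31.2 against 5.98 CPM per kb, 2.43 ± 0.34) and Gabra5 (18.9 against 1.57, 4.12 ± 0.56, adjusted p = 0.000228). Of the 2 GABA-synthesising enzymes, Gad2 was higher in striatum (141 to 893 CPM against 81.9 to 165 CPM, 1.91 ± 0.21, adjusted p = 5.33e-05), and Gad1, with medians of 543 CPM in both, was not called (-0.02 ± 0.12).

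**Figure D4:**
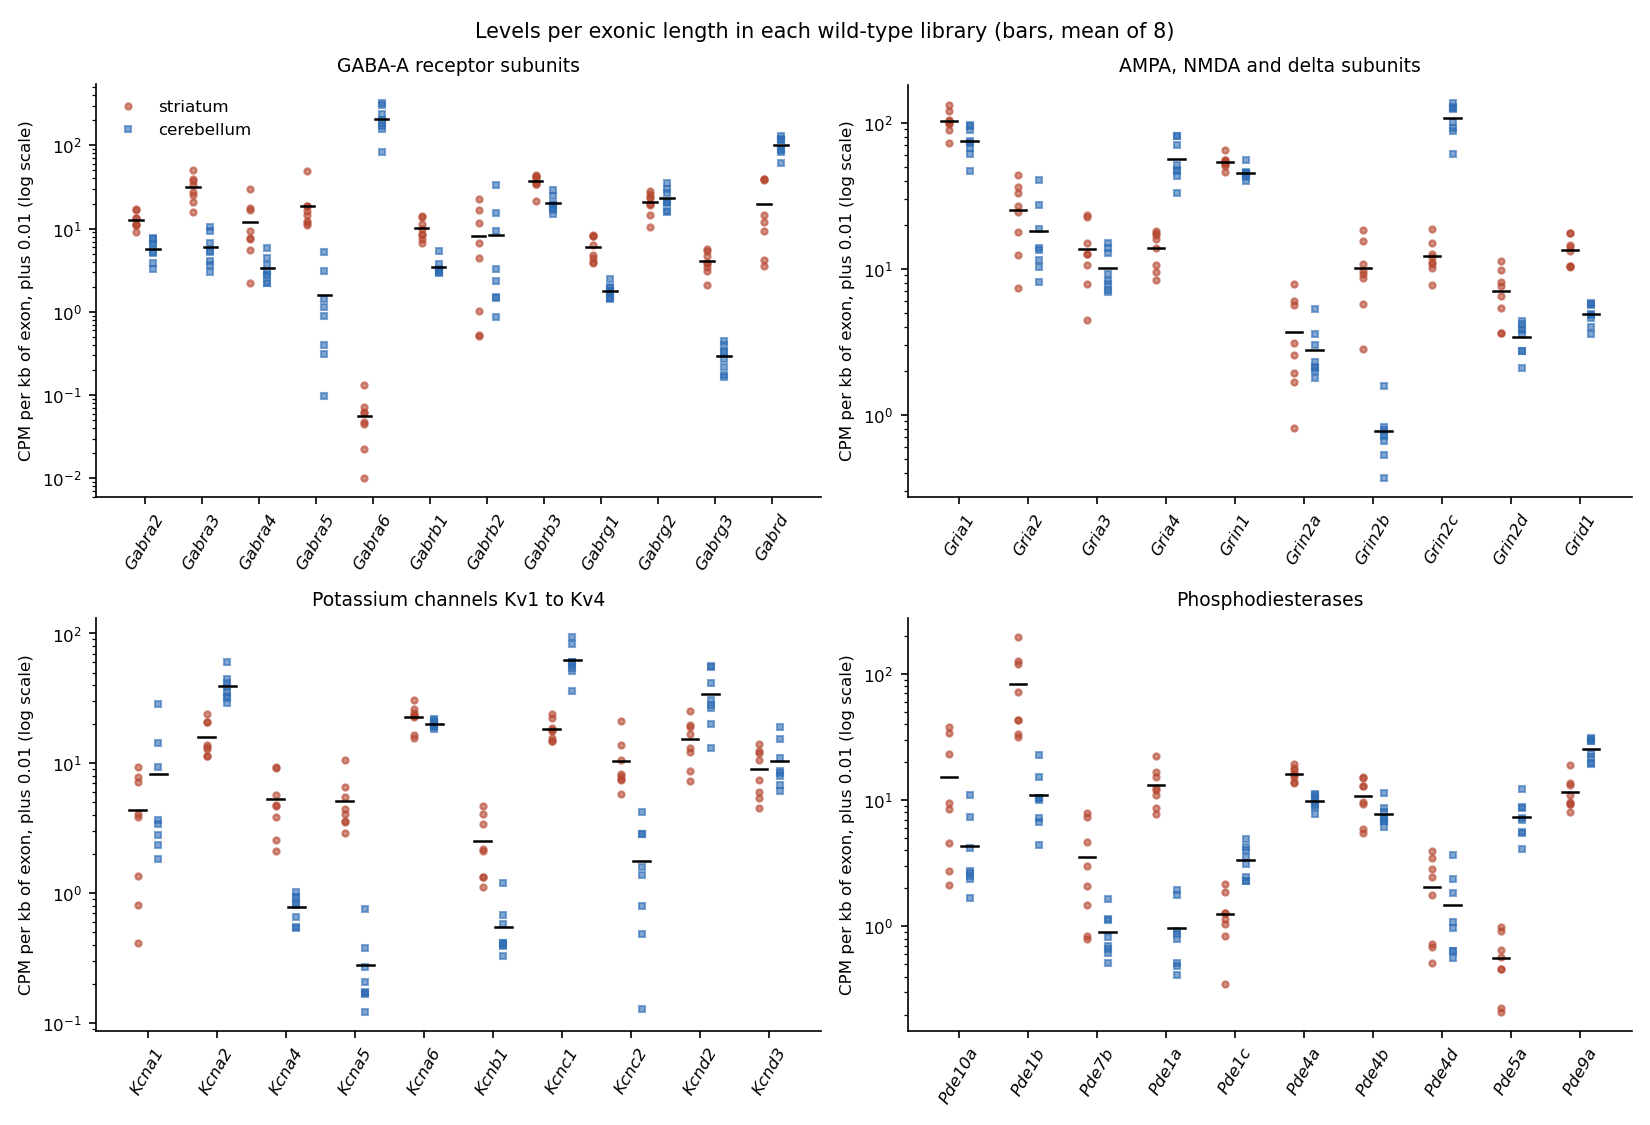
Levels in CPM per kb of exon (log axis, 0.01 added) of GABA-A receptor, ionotropic glutamate receptor, voltage-gated potassium channel and phosphodiesterase genes in each wild-type library, with bars at the mean of 8. Gabra6 and Grin2c lie higher in cerebellum and Gabra5 and Grin2b higher in striatum, while Grin1 lies close together in both.

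Acetylcholine and peptide receptors were mainly striatal. Of 11 acetylcholine receptor genes, 7 were higher in striatum and 1 in cerebellum (none without animal W806, W808 or W815), and Chrm1, the M1 muscarinic receptor, ran from 25 to 200 CPM in striatum and from 0.264 to 10.2 CPM in cerebellum (6.35 ± 0.68, adjusted p = 5.33e-05). Of 17 neuropeptide genes, 11 were higher in striatum and 1 in cerebellum (median 2.99). Cartpt, a peptide precursor of striatal and hypothalamic neurons, gave 6.14 ± 0.51. Vgf, a secreted granule protein, was at 193 to 470 CPM against 16.4 to 91.5 CPM (2.99 ± 0.25), and Chgb, another granule protein, was the cerebellar member (-1.18 ± 0.22, adjusted p = 0.00149, lower in striatum in 7 of 8 animals). Peptide receptors showed the same split of 11 of 14 and 1. The kappa opioid receptor Oprk1 gave 4.14 ± 0.60 and the delta receptor Oprd1 3.19 ± 0.63, while the mu receptor Oprm1 was not called (0.99, adjusted p = 0.279). Crhr1, the receptor for corticotropin-releasing hormone, was the cerebellar member, at 91.8 to 139 CPM against 11.8 to 26.3 CPM (-2.92 ± 0.14, adjusted p = 5.83e-07).

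Hypothalamic peptides took several of the largest striatal differences and rested on few libraries. Avp, the vasopressin precursor, was at 52.6, 1.33, 1047, 1.87, 138, 0.384, 0.496 and 3.97 CPM in the striatum of animals W805, W806, W807, W808, W813, W814, W815 and W816 and at most 0.123 CPM in cerebellum. Its log2 difference was 10.31 ± 1.24 with all animals and 4.36 without animals W805, W807 and W813. Oxt, the oxytocin precursor, fell from 8.24 to 5.28 and Pmch, the melanin-concentrating hormone precursor, from 7.75 to 4.13 when the same 3 animals were left out. Trh, the thyrotropin-releasing hormone precursor, was less affected (7.16 and 5.98). These 4 genes belong to the hypothalamic list given above. The part of hypothalamic tissue in their difference was not tested.

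Ion channel genes were called in both directions, where all genes had 24.4% higher in striatum and 22.6% higher in cerebellum. Of 40 potassium channel genes, 18 were higher in striatum and 13 in cerebellum (median 0.33). Kcnj4, an inward rectifier of projection neurons, was at 18.2 to 122 CPM in striatum and 0.666 to 7.98 CPM in cerebellum (5.15 ± 0.43, adjusted p = 1.3e-05), and Kcnip2, a subunit that speeds A-type currents, gave 4.51 ± 0.41. Kcnc1, a channel that permits fast spiking, was higher in cerebellum (-1.73 ± 0.15). Of 14 sodium and pacemaker channel genes, 5 were higher in striatum (3 without animal W816) and 4 in cerebellum (2 without animal W806 or W808), and the beta subunit Scn3b gave 4.73 ± 0.37. Of 22 calcium channel genes, 9 were higher in striatum and 5 in cerebellum. Cacna1h, a T-type channel, had 74.9 to 174 CPM in striatum and 2.7 to 13.7 CPM in cerebellum (4.13 ± 0.33), and Cacna1a, the P/Q-type channel of Purkinje cells, had 78.3 to 188 CPM and 177 to 603 CPM (-1.47 ± 0.20, adjusted p = 0.000244).

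Calcium and cyclic nucleotide signalling genes were called in both directions. Camk2a, the alpha subunit of the calcium/calmodulin kinase of forebrain synapses, was at 427, 1519 and 3428 CPM in striatum and 77.9, 103 and 236 CPM in cerebellum (lowest, median, highest), a log2 difference of 3.80 ± 0.41 (adjusted p = 5.1e-05). Its highest striatal values, 3428, 2979 and 2457 CPM, were in animals W815, W813 and W814, whose striatum libraries held the most transcript of cortical markers. The wild-type cortex mean (scaled over more libraries) was 3172 CPM, against a striatal mean of 1837 CPM. The part of cortical tissue in the difference was not tested. Atp2a3, a calcium pump of the endoplasmic reticulum, was at 5.34 to 12.4 CPM and 157 to 358 CPM (-4.81 ± 0.10, adjusted p = 1.28e-09). Of 20 calcium-binding protein genes, 6 were higher in striatum and 8 in cerebellum. Of 26 calcium store, pump and kinase genes, 4 were higher in striatum and 11 in cerebellum. Of 14 phosphodiesterase genes the counts were 6 and 4, with Pde1a at 46.5 to 135 CPM against 2.43 to 11.7 CPM (3.91 ± 0.43) and the cGMP-specific Pde5a at 1.96 to 9.62 CPM against 40.2 to 121 CPM (-3.85 ± 0.29). Of 20 cyclases and cyclic nucleotide targets, 14 were higher in striatum and 2 in cerebellum (1 without animal W806 or W815). Adcy1, a calcium-stimulated adenylyl cyclase, was higher in cerebellum in 7 of 8 animals (-2.54 ± 0.64, adjusted p = 0.00875). Of 25 G protein and RGS genes, 15 were higher in striatum and 2 in cerebellum, or 10 and 2 without animals W805, W807 and W813. Rgs14 was at 19.1 to 122 CPM in striatum and 0.145 to 3.65 CPM in cerebellum (6.49 ± 0.50), and the cerebellar members were Rgs8 (-2.86 ± 0.18) and Gng13 (-4.07 ± 0.25), which overlaps Chtf18 on the other strand.

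Synaptic organisers had 11 of 22 genes higher in striatum and 4 in cerebellum (median 0.62). The cerebellins were divided: Cbln2 (3.64 ± 1.04, adjusted p = 0.0157) and Cbln4 (3.06 ± 0.64) were higher in striatum, against Cbln1 and Cbln3 in cerebellum. Lrrtm1, a leucine-rich postsynaptic protein, gave 2.84 ± 0.17 and Nptx2, a pentraxin that gathers AMPA receptors, 3.07 ± 0.36. Nptx1 was higher in cerebellum in 7 of 8 animals (-2.07 ± 0.44).

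Among non-neuronal cells, microglia moved as one list. All 18 tested microglial genes were higher in striatum, with a median log2 difference of 1.36, and the same count was 18 in the deletion animals, 17 in the wild-type males alone and 17 in the females alone. Cx3cr1, the fractalkine receptor, had 33.3, 40.8 and 51.6 CPM in striatum and 11.9, 12.8 and 19.6 CPM in cerebellum (lowest, median, highest). The regions did not overlap (1.61 ± 0.15, adjusted p = 2.2e-05). P2ry12, a purine receptor of resting microglia that lies within Med12l on the other strand, gave 1.56 ± 0.28, and Tmem119, a membrane protein used to tell microglia from other macrophages, 1.38 ± 0.12. The smallest difference was that of Tyrobp (0.81 ± 0.18) and the largest that of Fcrls (1.71 ± 0.16).

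Astrocyte markers were called both ways, with 5 of 18 higher in striatum, 5 in cerebellum and a median of 0.01. These shares lie near the 24.4% and 22.6% of all genes. Slc1a2 (GLT-1), the main forebrain glutamate transporter, was at 797 to 2751 CPM in striatum and 488 to 1002 CPM in cerebellum (1.40 ± 0.23). Crym, a thyroid hormone-binding protein described in striatal astrocytes, gave 8.34 ± 0.49 (adjusted p = 1.82e-06), with medians of 102 and 0.2 CPM. Its striatal values ran from 28.9 to 226 CPM. It was not particular to striatum, with a mean of 129 CPM in wild-type cortex (scaled over more libraries) against 112 CPM in striatum. The water channel Aqp4 (-1.38 ± 0.21, adjusted p = 0.000441) and Aldoc (-1.53), which Purkinje cells also express, were higher in cerebellum. For oligodendrocytes, 6 of 20 genes were higher in striatum and none in cerebellum, against 24.4% and 22.6% of all genes, with 7 called in the males alone and 3 in the females alone, all in striatum. Those called were led by precursor genes: Pdgfra, the platelet-derived growth factor receptor of precursors, at 34.1 to 84.3 CPM against 12.7 to 33.6 CPM (1.47 ± 0.25, adjusted p = 0.000924), Gpr17 (1.43 ± 0.11) and Cspg4 (1.41 ± 0.13).

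Meningeal fibroblast genes were higher in cerebellum for 12 of 14 members (median -1.54), none in striatum. Dcn, a small proteoglycan of connective tissue, was at 5.36 to 17.7 CPM in striatum and 17.2 to 40.8 CPM in cerebellum (-1.52 ± 0.22, adjusted p = 0.000298). All 6 blood genes were also higher in cerebellum (median -1.25), with the haemoglobin gene Hbb-bs at 11.3 to 41.2 CPM against 26.7 to 81.5 CPM. Haemoglobin genes have near-identical copies, so their separate counts are uncertain. Endothelial markers were called for 3 of 18, all in cerebellum (median -0.32), or for 1 without animal W816. The choroid plexus and ependyma list had 4 of 17 higher in striatum and 2 in cerebellum, the latter ranging from 0 without animal W805 to 5 without animal W816. Over all genes, 24.4% were higher in striatum and 22.6% in cerebellum. Ttr, the choroid transthyretin, was at 10.2 to 13700 CPM in cerebellum and 5.12 to 4670 CPM in striatum and was not called (-4.01 ± 2.38, adjusted p = 0.196).

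Nuclear-encoded respiratory chain genes were higher in cerebellum for 12 of 24 members (median -0.42) and none in striatum, but the count was 2 in the 4 males alone, 21 in the 4 females alone and 1 without animals W813 and W816. Leaving out 1 animal gave counts from 7 (without W813, W814, W815 or W816) to 19 (without W805). Ndufa4, a small subunit, had 170 to 445 CPM in striatum and 228 to 672 CPM in cerebellum (-0.77 ± 0.17, adjusted p = 0.00479), and gave -0.33 in males and -1.23 in females. The 11 mitochondrially encoded genes had no call (median 0.09). Cytosolic ribosomal protein genes moved in the same way, with 1 of 20 called in all 8 animals (median 0.17, or 2 called without animal W814 or W815), 17 higher in striatum in males (median 0.68) and 3 higher in cerebellum in females (median -0.41). For all 20 ribosomal genes the difference between females and males in the regional difference passed the test, in the negative direction.

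That difference followed transcript length across the genome. The regional difference itself differed between females and males for 3646 of 18186 genes (20%). Taken as females minus males, the change was positive for 2060 (11.3%) and negative for 1586 (8.72%). A positive gene need not be higher in striatum in females. The median exon length was 8.09 kb for the positive genes, 2.13 kb for the negative ones and 3.91 kb for all. A length contrast was then taken per library, the mean log2 CPM of the longest 10% of genes (at least 9.55 kb, 1696 genes) minus that of the shortest 10% (at most 1.377 kb, 1701 genes). As striatum minus cerebellum within an animal, it ran from -0.69 to -0.15 in the 4 wild-type males and from 0.23 to 1.22 in the 4 females. The groups did not overlap. Since the contrast was built after the sex-term genes of the same animals had been seen to differ in length, it describes that pattern and no test of it is given. In the deletion animals it ran from -0.97 to 0.30 in males and from 0.39 to 0.79 in females.

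With this contrast as a covariate, no gene passed for the sex term in edgeR's quasi-likelihood test, and 2079 (11.4%) had an unadjusted p under 0.05, against 6596 (36.3%) without it. The covariate came from the same libraries and its difference within animals separated the wild-type sexes without overlap. It therefore takes up much of what the sex term could show, and no conclusion is drawn from the fall in calls. In the deletion animals the sex term also called 0 genes, with 4271 (23.6%) at an unadjusted p under 0.05. Of 3626 wild-type sex-term genes tested there, 3595 had the same sign, and of all genes tested in both genotypes 82.5% did. Over genes tested in both sexes, 2352 were higher in striatum and 1956 higher in cerebellum in each sex alone, and 347 were called in opposite directions. Sex, the date in the labels and the length contrast cannot be told apart in these animals.

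**Figure D5:**
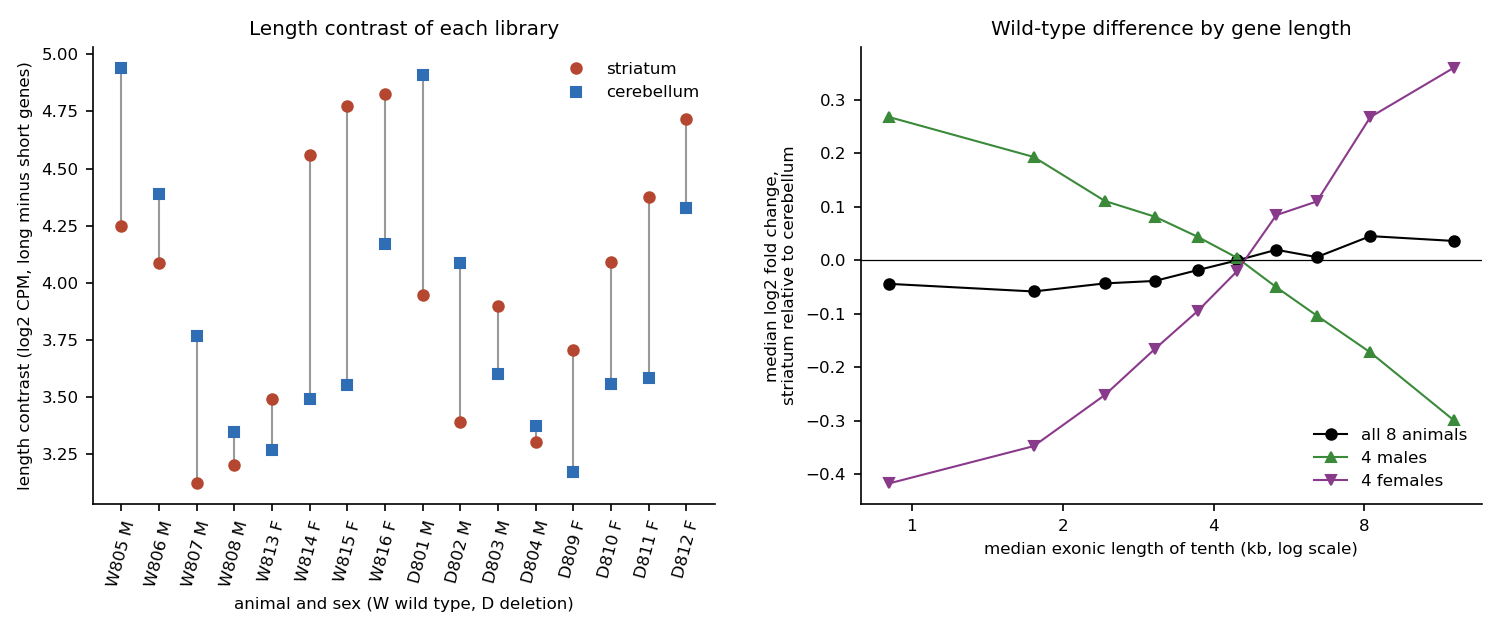
Left, the length contrast (log2 CPM of the longest minus the shortest 10% of genes) in each striatum and cerebellum library, by animal, for wild-type (W) and deletion (D) mice. Right, the median log2 difference of striatum minus cerebellum by exon length in 10 equal bins for all 8 wild-type animals, the 4 males and the 4 females: it falls from 0.27 to -0.30 in males, climbs from -0.42 to 0.36 in females and runs from -0.04 to 0.04 when all 8 are combined.

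No gene passed the test for a deletion effect on the regional difference. Of 18077 genes tested for a difference between genotypes in striatum minus cerebellum, edgeR's quasi-likelihood test called 0 after Benjamini-Hochberg adjustment, and 236 (1.31%) had an unadjusted p under 0.05. That share is lower than the level of 0.05 itself, so the test may be too cautious here. The absence of calls therefore does not show that the regional difference was unchanged. In the wild-type animals, 4 of the 29 tested genes of the 7qF3 interval and its edges were higher in striatum and 10 in cerebellum (median -0.12). Doc2a, a calcium sensor of spontaneous transmitter release, was the steepest at 21.5 to 61.7 CPM against 0.325 to 13.2 CPM (3.86 ± 0.59, adjusted p = 0.00044), and Mvp, the major vault protein, was at 8.51 to 19.2 CPM against 30.5 to 53.8 CPM (-1.84 ± 0.19). Doc2a overlaps Ino80e on the other strand.

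One of 3 library measures differed between the regions. The number of genes at 1 CPM or more was 14978 ± 77.4 (SD, n = 8) in striatum and 14492 ± 249 in cerebellum, higher in striatum in 7 of 8 animals (exact paired permutation test p = 0.0156, adjusted over 3 measures 0.0469). The mitochondrial share of counts was 3.30% ± 0.91 and 2.93% ± 0.46 (p = 0.398 in the same exact test), and the share of the 100 most abundant genes 16.1% ± 0.55 and 15.5% ± 1.10 (p = 0.219). In a principal component analysis, the first component held 57.8% of the variance and separated the regions, and the second held 18.7%.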

How the data were processed

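Read counts for each gene, as whole numbers, were deposited by the authors for all 48 libraries in a single table. The submitters' processing notes list STAR 2.4.2a, FastQC 0.10.1, SAMtools and Picard, and the builds GRCm38 and mm8 without their roles. How reads were assigned to genes, with which annotation and strand setting, is not given in the sources used here, so reads of overlapping genes are uncertain. Of 47161 features, 92 spike-in rows were dropped, and 46574 of 47069 gene IDs were matched to GENCODE vM21 symbols (GRCm38). The 495 unmatched IDs held 0.0559% of counts.

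The counts were tested with edgeR 4.0.16 (R 4.3.3) by the quasi-likelihood test with TMM scaling, a filter on low counts by region, animal as a block and Benjamini-Hochberg adjustment over all tested genes. Values are striatum minus cerebellum, and CPM use scaled library sizes. The SE after a log2 difference comes from the fit, as the size of the difference over the square root of the test's F statistic. It is not the spread of the differences of single animals. Animal numbers pair the libraries, since both came from 1 animal. Deviations from the region means correlated at a median of 0.312 within animals (-0.136 to 0.579, 8 pairs) and -0.081 otherwise. Taking out the region means itself lowers the latter. For 4 of the 8 animals, the striatum library correlated best with the cerebellum library of the same animal. The script was first tested on simulated data. DESeq2 1.42.0 and other scalings and filters were tried as alternatives.

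Named genes were the 12 largest differences each way among called genes at 20 CPM or more in the higher region with 1 sign in 8 of 8 animals, the 6 most abundant each way past a log2 difference of 3, the first 3 tested members of each of 47 gene lists with up to 2 called against its majority, and the 5 smallest p-values of the sex and genotype tests. Of 768 list entries, 766 were found in the table, and counts cover those that passed the filter. Further list members were named as examples. The comparison, the lists and the rule were chosen with earlier results of these data known. Some genes that the rule covers are not reported here.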

Additional observations from a re-analysis of the deposited data

Results flagged for a closer look

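In 21 of 461 groups of 8 libraries examined (4.56%), 1 library lay apart from the other 7 by more than a 95% limit on such gaps, which chance reaches in about 1 in 20 groups. The striatum library of animal W813 gave 8 of them. In that library Chat was at 0.234 CPM (others 5.43 to 32.5) and Slc5a7, the choline transporter, at 0.534 CPM (others 6.66 to 44.2). The same library held 0.167 CPM of Gbx2, 5.04 CPM of Kcnj12 and 2.57 CPM of Itpr3, each the lowest, and 64.6 CPM of Homer3 and 978 CPM of Chgb, each the highest. Its mean log2 CPM of Purkinje markers was 3.35 (others 3.73 to 3.94). In its cerebellum, animal W813 had 58.4 CPM of En2 (others 101 to 155), 102.0 CPM of Zic2 (others 169 to 253) and a share of 17.99% for the 100 most abundant genes (others 14.2% to 15.5%).

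The cerebellum library of animal W805 was lowest for Hopx (95.6 CPM), Slc32a1 (97.8 CPM) and Actb (434 CPM) and highest for the mean of the potassium channel list (5.02, others 4.10 to 4.45). That of animal W808 was highest for Hpcal4 (82.4 CPM) and for the mean of the immediate early genes (3.89), and that of animal W806 was highest for Itpr3 (33.6 CPM) and lowest for Slc17a6 (0.228 CPM). In striatum, Slc17a6 was highest in animal W814 (163 CPM) and Crhr1 in animal W815 (26.3 CPM).

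The regional difference itself differed between females and males by the test of that difference for 3646 genes. Among the 5 of smallest p, female minus male was 2.05 for Atp2b3, 3.41 for Vps13c, 1.57 for Med12, 1.45 for Prr14l and 5.03 for Gm38104 on the log2 scale.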

How the results depend on the processing

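The counts of genes higher in striatum (4145) and in cerebellum (3845) stayed within 1.5 times under the scalings and filters tried, DESeq2 (4453 and 4344) and each left-out animal (3561 to 4072 and 3329 to 3976). With no replicate block they were 3930 and 3520, and Penk then passed (1.51, adjusted p = 0.0172) while Zic4 (adjusted p = 0.106) and Slc18a3 (adjusted p = 0.118) did not. A test against 1.5-fold left 2275 and 1404. Upper-quartile scaling moved the split to 4384 and 3480, with a median over all genes of 0.03. DESeq2 also called Penk, Slc17a7, Nr2f2 and Ttr.

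Medians of several lists moved. The dopamine list was at 2.15 without animals W807, W808 and W813. The hindbrain list was at -4.46 with no filter and -3.88 without W805, W807 and W813. The Purkinje list was at -3.04 without W813 and W816 and -2.59 in females. The cerebellar interneuron list was at -0.93 without W813 and W816, -0.75 without these and W807, and -0.81 in males. Ionotropic glutamate receptors were at 0.13 in males and 0.64 in females, calcium store genes at -0.89 in males and the 7qF3 interval at -0.45 in females. G protein and RGS genes were at 0.83 in males, 0.27 in females and 0.36 without W805, W807 and W813. The cortical list ran from 0.45 in males to 2.19 in females and the hippocampal list from 0.05 to 1.83. The causes were not tested.

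Genes that were not called changed sign around 0. Ppp1r1b ranged from -0.23 (without W806) to 0.46 (without W805) (-0.19 in females) and Gad1 from -0.089 to 0.035 with 1 animal left out. Gad1 was 0.035 with no replicate block, 0.022 with upper-quartile scaling, 0.0028 with a stricter filter, 0.022 without W813 and W816, 0.064 without these and W807, 0.058 in males, 0.091 without W805, W807 and W813 and 0.086 without W807, W808 and W813. Oprm1 was -0.099 in males, and passed without W805, W807 and W813 (2.05, adjusted p = 0.0413).

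The difference in genes detected was 584.2 without W807, W813 and W816 (p = 0.0625), 470.5 in males (p = 0.125) and 500 in females (p = 0.25) by exact permutation, where the first 2 are the smallest p that so few animals allow. The share of the 100 most abundant genes differed by 0.31 to 0.94 with 1 animal left out. The sex term called 0 genes with the length contrast as covariate, which itself separated the wild-type sexes, and 0 in the deletion animals.

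At 29331296 or more counts a library, depth limits the genes near 0 in 1 region, whose fold is poorly bounded, more than the abundant markers. The sets without W805, W807 and W813 and without W807, W808 and W813, and the length covariate, were chosen after seeing the data. The first set leaves out the striatum libraries lowest for projection neuron markers and highest for hypothalamic ones. Shifts of such genes in that set follow in part from the choice.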

Other observations

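Several genes with large regional differences have not been described above. Ddn (dendrin), a dendritic scaffold protein, ran from 94.9 through a median of 696 to 1481 CPM in striatum and from 0.576 through 1.77 to 42.7 CPM in cerebellum, without overlap (log2 difference 8.01 ± 0.87, adjusted p = 5.54e-05). It overlaps an antisense transcript. Icam5, a telencephalic adhesion molecule, gave 6.94 ± 0.58 (adjusted p = 1.28e-05). Among abundant genes, Camkv, a kinase-like protein of dendritic spines, gave 5.45 ± 0.50, Nrgn (neurogranin), which binds calmodulin, 4.60 ± 0.69, and the long noncoding RNA Miat 3.44 ± 0.40. The regions overlapped for Nrgn, at 90.7 to 1197 CPM in striatum and 3.04 to 127 CPM in cerebellum. Ddn, Icam5, Camkv and Nrgn were all highest in the striatum library of animal W813, which also held the most transcript of cortical markers. Their wild-type cortex means (scaled over more libraries) were 1074, 222, 702 and 1541 CPM, against striatal means of 682, 156, 616 and 423 CPM. The part of cortical tissue was not tested.

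On the cerebellar side, Cnpy1, a regulator of FGF signalling at the midbrain and hindbrain boundary, was at 0.167 to 0.714 CPM in striatum and 200.3 to 635 CPM in cerebellum (-9.83 ± 0.17, adjusted p = 1.22e-09). Dao, the enzyme that degrades D-serine, was at 0.062 to 0.589 CPM and 71.6 to 118 CPM (-8.36 ± 0.36), so its 8 libraries in each region did not overlap. Crtam, an adhesion molecule first described in T cells, gave -9.49 ± 0.23. The myosin-binding proteins Mybpc3 and Mybpc1, known from heart and skeletal muscle, gave -8.70 ± 0.51 and -7.60 ± 0.58.

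Immediate early genes, which neurons transcribe after activity, were higher in striatum for 8 of 17 members and higher in cerebellum for 2 (median 0.65). Egr3 was at 0.465 to 37 CPM in striatum and 0.0303 to 1.04 CPM in cerebellum (5.88 ± 0.69, adjusted p = 9.1e-05), and Arc at 27.5 to 134 CPM and 17.8 to 47 CPM (1.55 ± 0.24). The cerebellar members were Ier2 (-2.03 ± 0.20) and Dusp1 (-1.07 ± 0.19). Of 8 endocannabinoid genes, 2 were higher in cerebellum, a share near the 22.6% of all genes: the receptor Cnr1, at 101 to 533 CPM against 45 to 181 CPM (-1.34 ± 0.25, adjusted p = 0.00145), and the hydrolase Abhd6 (-0.48 ± 0.11).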
